A study of Mus musculus with 2 samples.

Results

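The voltage-gated potassium channel genes of the matrix were taken as every gene whose symbol is Kcn followed by one of the letters a, b, c, d, f, g, h, q, s or v and then digits only. That gave 40 genes of 31040. Each codes for an alpha subunit, the kind that forms the pore, and the rule uses no measured value. The matrix holds counts of unique molecular identifiers (UMIs, tags that mark single captured RNA molecules) from single nuclei of the mouse prefrontal cortex. The labels give 2 groups of wild type C57BL/6 males at 2 months of age. The METH group received methamphetamine and the Control group received saline, both by intraperitoneal injection for 14 days, and the labels write 5 mg/kg for each. For each group the tissue of 3 mice was pooled, and nuclei from an iodixanol gradient went into 1 droplet library that captures the 3′ ends of RNA. No label ties either of the 2 barcode numbers to METH or Control, so METH was not compared with Control. The libraries are called library 1 and library 2, and all nuclei together were treated as 1 pooled sample without replicates.

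Voltage-gated potassium channels open when the membrane depolarises and let potassium out, which ends the action potential and sets how soon the next one can follow. A channel is built of several subunits around one pore, and subunits combine mainly within a subfamily. The Kcna subunits sit largely in axons, the Kcnb subunits on the soma, the Kcnc subunits in neurons that fire at high rates, and the Kcnd subunits in dendrites, where they carry a fast transient current. The Kcnf, Kcng, Kcns and Kcnv subunits form no channel of their own and modify Kcnb channels. The Kcnh genes code for the ether-a-go-go related channels, and most Kcnq genes for channels of the M-current, which muscarinic receptors suppress.

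After a minimum of 500 genes per nucleus and the removal of called doublets, 18002 nuclei remained, 8003 in library 1 and 9999 in library 2, with medians of 3047 and 2924 UMIs. Of 20766 barcodes, 154 sequences occurred in both libraries. The labels give 8000 nuclei loaded per group, fewer than the 9890 barcodes of library 1 and 10876 of library 2. Each kept barcode is counted here as a nucleus. Nuclei were clustered without any potassium channel gene or channel partner, and clusters were named from marker genes, so each name below means that a cluster is like that cell type. There were 9 classes of at least 100 nuclei: 7724 excitatory, 2425 inhibitory and 1411 striatal projection neurons, 3060 oligodendrocytes, 881 microglia, 353 oligodendrocyte precursors, 306 astrocytes, 218 endothelial cells and 109 fibroblasts. The tissue label names the prefrontal cortex, while 7.84% of nuclei carried the markers of the striatum. Among neurons, 8696 nuclei fell into 13 named subclasses and 2864 into none. Of the clusters within layer 2/3, layer 4/5 and layer 6 corticothalamic neurons, each came almost wholly from 1 library (at least 96.4% of the nuclei), and these pairs of clusters were pooled in their subclass. Counts of a gene were summed over the nuclei of a class or subclass and divided by all UMIs of that group (counts per 1000000, CPM). All intervals are exact and cover counting error only. Of the 40 members, 12 overlap a gene on the other strand, and no source used here says whether counting used strand, so reads of such pairs cannot be told apart.

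The members as a sum were higher in neurons, and 14 of them were called as higher in 1 class than in any other. Summed over all 40 genes, the level was 9266 CPM in neurons and 2754 CPM in non-neuronal nuclei, a ratio of 3.36 (95% interval 3.31 to 3.42). By class it was 10705 CPM in striatal projection neurons, 9433 CPM in excitatory neurons and 7700.3 CPM in inhibitory neurons. It was 5587 CPM in endothelial cells, 5582 CPM in oligodendrocyte precursors and between 1818 and 2893 CPM in the other 4 classes. A few genes weighed most in these sums. Kcnh7, Kcnq5 and Kcnd2 had 109680, 94528 and 92457 UMIs over the classes, and no other member exceeded 38448. Kcnd2 alone gave 2832 of the 5582 CPM in the precursors. Neuronal RNA freed during preparation can enter droplets of other cells. In the endothelial class the 10 genes used as its measure (glutamatergic, GABAergic and pan-neuronal markers) reached a median of 1.09 times their level in neurons, against 0.358 to 0.507 times in the other 5 non-neuronal classes.

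Of the 40 members, 36 had at least 50 UMIs over the 9 classes. A member was called in a class where its CPM was at least 1.5 times that of the next class, the interval of that ratio lay above 1, and the same class was highest in each library. By this rule 14 of 36 members were called (38.9%), while 17.8% of all 15794 genes tested were. The median ratio of the highest to the next class was 1.53 over the members and 1.29 over all genes tested. Of the 14, striatal projection neurons held 5, inhibitory neurons 3, excitatory neurons 2, oligodendrocytes 2, their precursors 1 and endothelial cells 1. With library 1 alone 8 members were called, 7 of the 14 among them, and Kcnq5, Kcna4, Kcnd2, Kcna6, Kcnh4, Kcnh5 and Kcng3 were not. With library 2 alone 12 of the 14 were called, without Kcna4 and Kcnh5. Over the 13 neuronal subclasses 35 members were tested and 6 were called (17.1%), beside 7.27% of all genes tested. The median ratio of the highest to the next subclass was 1.23 over the members and 1.13 over all genes. Kcna3, Kcna7, Kcna10 and Kcng4 had fewer than 50 UMIs over the classes, and Kcnv2 over the subclasses, so no level is given for them there. Kcnv2 ran from 0 to 1.54 CPM over the classes and was not called.

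**Figure D1:**
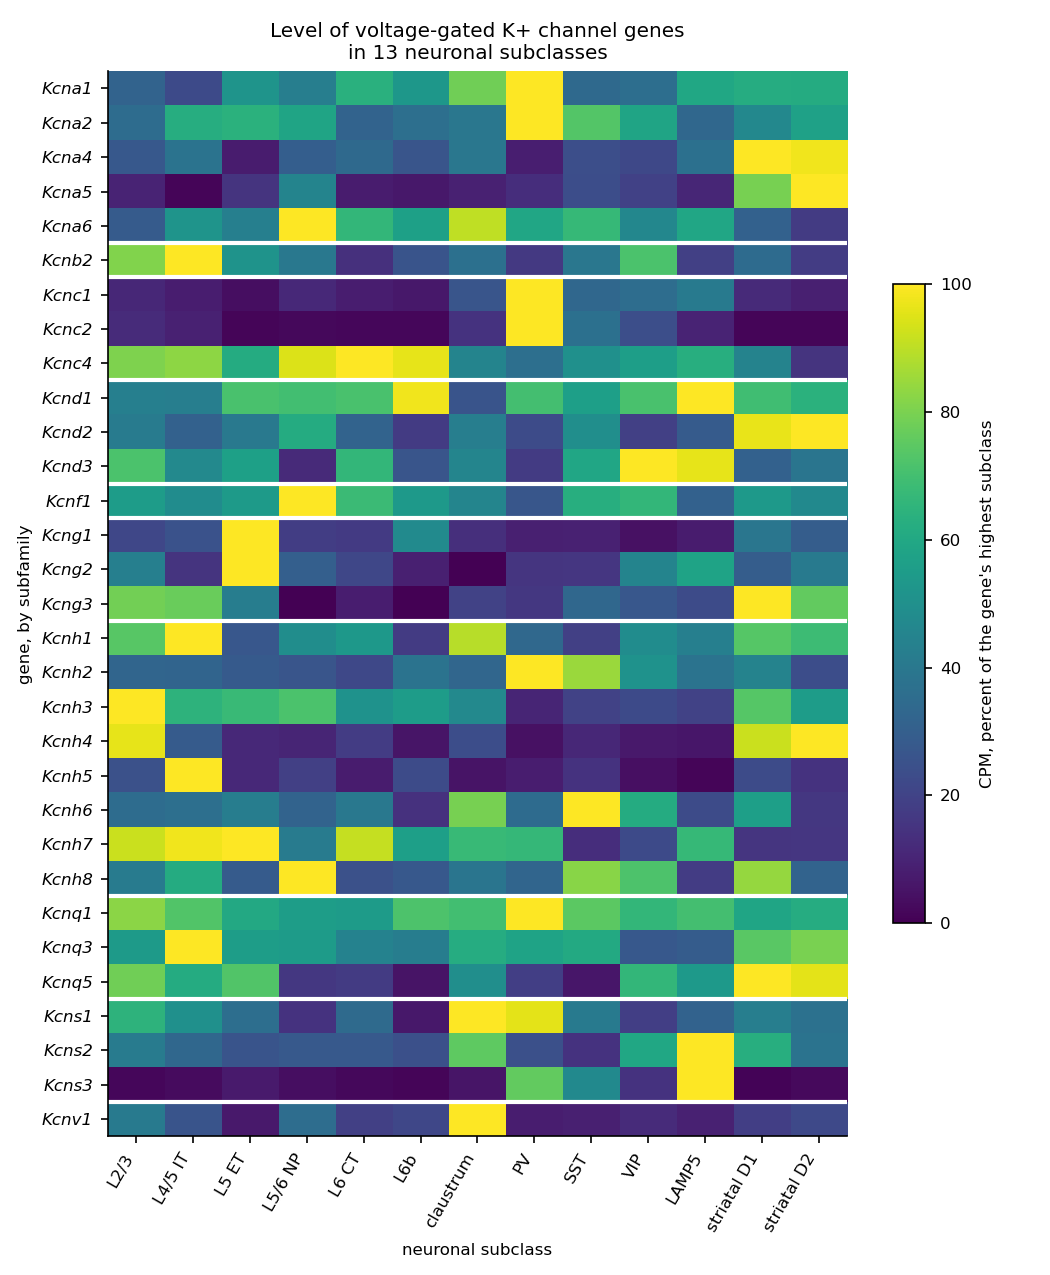
Level of the tested members described here in the 13 neuronal subclasses, as a percent of the gene's highest subclass (colour), with genes in rows by subfamily and white lines between subfamilies. Kcnc1 and Kcnc2 peak in parvalbumin (PV) interneurons, Kcnh5 in layer 4/5 intratelencephalic (L4/5 IT) neurons, Kcng1 in layer 5 extratelencephalic (L5 ET) neurons and Kcnv1 in the claustrum, while Kcnq1 varies little.

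Kcnc1 and Kcnc2 were highest in parvalbumin interneurons. These are the fast-spiking basket and chandelier cells of the cortex, and Kcnc channels open only at strong depolarisation and close quickly, which allows short action potentials. Kcnc2 (chr10:112271121-112467024, mm10) had 2670.0 CPM (library 1) and 2969 CPM (library 2) in parvalbumin interneurons, against 1109.5 CPM (library 1) and 979.9 CPM (library 2) in somatostatin interneurons, the next subclass. Pooled, it had 2819 CPM (95% interval 2756 to 2883) in parvalbumin interneurons and 1043 CPM (95% interval 997 to 1091) in somatostatin interneurons, a ratio of 2.7-fold (95% interval 2.57 to 2.84). VIP interneurons followed with 673 CPM, then the claustrum with 412 CPM, layer 2/3 with 342 CPM, LAMP5 interneurons with 277 CPM and layer 4/5 with 262 CPM. The other 6 subclasses, the named deep-layer and striatal ones, lay between 33.2 and 63.4 CPM, so that the highest subclass had 84.9 times the level of the lowest. Both libraries gave this split of layer 2/3 and layer 4/5 from layer 5 extratelencephalic, near-projecting, layer 6 corticothalamic and layer 6b neurons. No deep-layer intratelencephalic subclass was named, so whether the split follows layer was not tested.

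Kcnc1 (chr7:46396497-46438704) had 535 CPM (library 1) and 478 CPM (library 2) in parvalbumin interneurons, against 178 CPM (library 1) and 239 CPM (library 2) in LAMP5 interneurons. Pooled, it had 507 CPM (95% interval 480.0 to 534) in parvalbumin and 207 CPM (95% interval 176 to 240.2) in LAMP5 interneurons, a ratio of 2.45-fold (95% interval 2.09 to 2.9). The LAMP5, VIP and somatostatin interneurons had 207, 181 and 169 CPM with overlapping intervals for neighbours in this order. The claustrum followed with 134 CPM, and the other 8 subclasses lay between 18.1 CPM in layer 5 extratelencephalic neurons and 60.7 CPM in direct-pathway striatal neurons. Kcnc4 was not called. It had 23.5 CPM in layer 6 corticothalamic neurons, its highest subclass, and only 8.6 CPM in parvalbumin interneurons.

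At the level of classes, Kcnc2 had 1653 CPM (95% interval 1624 to 1682) in inhibitory neurons and 215 CPM (95% interval 210.3 to 219.8) in excitatory neurons, the next class, a ratio of 7.69-fold (95% interval 7.47 to 7.91). The libraries gave 1647 CPM (library 1) and 1659 CPM (library 2) in inhibitory neurons, and 209 CPM (library 1) and 220.3 CPM (library 2) in excitatory neurons. Kcnc1 had 294 CPM (95% interval 282 to 306) in inhibitory neurons, 3.15-fold (95% interval 2.22 to 4.65) its level of 93.2 CPM in the endothelial class and far above the 54.3 CPM of striatal and 47.7 CPM of excitatory neurons. Per nucleus, with each thinned to 1500 UMIs, 94.3% (exact 95% interval 92.4 to 95.8) of 773 parvalbumin nuclei held a Kcnc2 UMI, against 73.9% (exact 95% interval 70.2 to 77.4) of 590 somatostatin nuclei. Without thinning these were 98% and 90.0%, at median depths of 3240.0 and 2975 UMIs. In oligodendrocytes, taken here as a class without the channel, 5.63% (exact 95% interval 2.94 to 9.63) of 213 thinned nuclei did, and 4.58% of all 3060 at a median of 811 UMIs. Only nuclei with at least 1500 UMIs could be thinned, so the 213 are the deepest of their class. The share for Kcnc2 was at this background in the named deep-layer and striatal subclasses, for example 4.78% in layer 6b. For Kcnc1 the thinned shares were 50.1% (exact 95% interval 46.5 to 53.6) in parvalbumin interneurons and 3.76% (exact 95% interval 1.64 to 7.27) in oligodendrocytes.

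Parvalbumin interneurons were not uniform in Kcnc2. Their 3 clusters, none of which was made with a potassium channel gene, had 3712 CPM in 294 nuclei, 2278 CPM in 451 nuclei and 837 CPM in 37 nuclei. Kcnc1 varied little over the same clusters, with 493, 518 and 487 CPM. The first 2 clusters held both libraries in nearly equal number (146 and 148 nuclei of libraries 1 and 2 in the first, 219 and 232 in the second). One cluster of inhibitory neurons without a name, 228 nuclei led by Sst and Cort, had 2298 CPM of Kcnc2 and 128 CPM of Kcnc1. With it and the other 5 unnamed neuronal clusters of at least 100 nuclei among the groups, the ratio of parvalbumin interneurons to the next group was 1.23 for Kcnc2, which ends its call, while Kcnc1 stayed called.

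**Figure D2:**
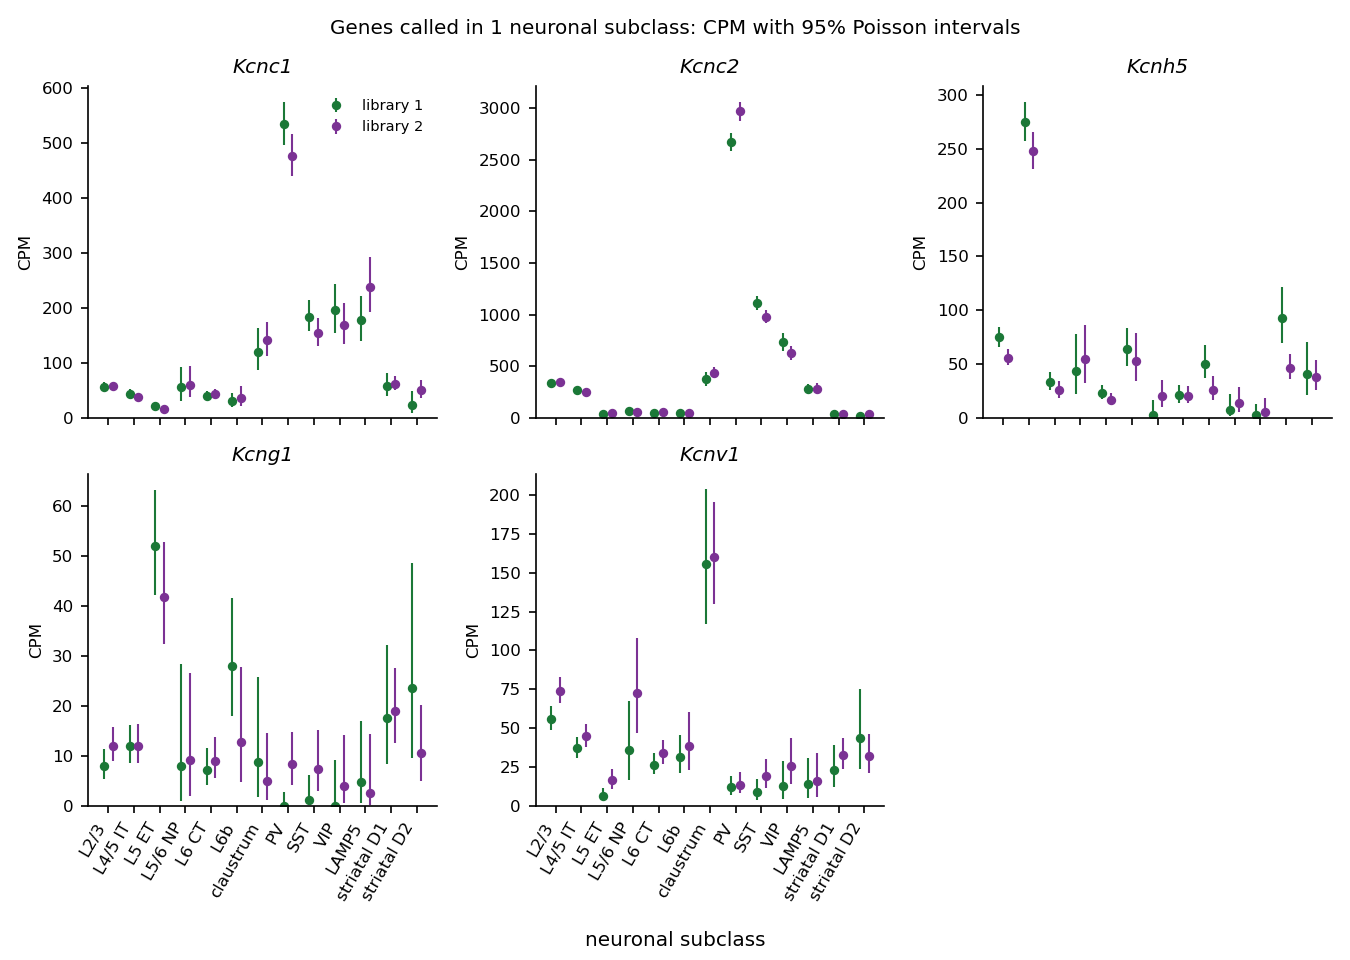
CPM of Kcnc1, Kcnc2, Kcnh5, Kcng1 and Kcnv1, each called in 1 neuronal subclass (points, library 1 green and library 2 purple, bars are exact 95% Poisson intervals), by subclass on the horizontal axis. In each panel both libraries place the same subclass highest; for Kcnc2 the 2 parvalbumin points lie at 2670.0 and 2969 CPM.

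RefSeq promoters (GRCm38.p6, 250 bases before to 50 after a gene's start) were at hand for 25 members, with 30 starts. They are shown for Kcnc1 and Kcnc2, which peak in the same subclass, and for Kcnh8, described below, which peaks in oligodendrocyte precursors. Capitals mark GGGCGG or its reverse complement CCGCCC, the core of the GC box. The first of 4 listed starts is shown for Kcnc2.
Kcnc1, chr7:46396218-46396517, plus strand: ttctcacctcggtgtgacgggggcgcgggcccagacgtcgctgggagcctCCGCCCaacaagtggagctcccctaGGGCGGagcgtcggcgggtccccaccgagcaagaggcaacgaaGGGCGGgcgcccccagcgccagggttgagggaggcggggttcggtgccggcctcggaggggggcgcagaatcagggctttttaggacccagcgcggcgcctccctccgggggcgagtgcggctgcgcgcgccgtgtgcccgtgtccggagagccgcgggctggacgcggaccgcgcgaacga
Kcnc2, chr10:112269767-112270066, plus strand: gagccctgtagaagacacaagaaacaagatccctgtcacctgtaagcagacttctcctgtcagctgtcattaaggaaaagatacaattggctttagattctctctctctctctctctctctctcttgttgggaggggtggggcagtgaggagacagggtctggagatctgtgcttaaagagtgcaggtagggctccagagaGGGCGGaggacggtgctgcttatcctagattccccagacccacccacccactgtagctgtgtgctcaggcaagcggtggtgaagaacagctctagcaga
Kcnh8, chr17:52602459-52602758, plus strand: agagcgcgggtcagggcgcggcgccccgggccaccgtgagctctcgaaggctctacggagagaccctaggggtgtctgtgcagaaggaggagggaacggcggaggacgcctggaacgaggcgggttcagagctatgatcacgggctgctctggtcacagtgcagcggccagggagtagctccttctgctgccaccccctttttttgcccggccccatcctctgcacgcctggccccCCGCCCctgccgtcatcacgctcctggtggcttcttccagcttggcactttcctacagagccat
The promoter of Kcnc1 was 74.7% G or C with 41 CG dinucleotides and 3 GC boxes. The first listed start of Kcnc2 was 52.7% G or C with 3 CG dinucleotides and 1 GC box. Its other listed starts were 52.7% to 58% G or C, with 5 or 6 CG dinucleotides and no GC box. The Kcnc2 gene start given above lies within those other stretches and not within the one shown. The promoter of Kcnh8 was 66% G or C with 21 CG dinucleotides and 1 GC box. So the 2 genes that shared a highest subclass differed in base composition at their starts. Over the 30 member promoters the median was 64.7% G or C and 19.5 CG dinucleotides, against 52.7% and 7 over all 32841 promoters of the table. GGGCGG on either strand was in 18 of 30 member promoters and in 35.7% of all. TATAAA, the TATA box, was in 0 of the 30 and in 13.6% of all. The letters TGACGTCA, CACGTG and ACAAAG, also searched on both strands, were in 0, 1 and 2 of the 30, and in 1.79%, 7.15% and 18.7% of all.

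Of the Kcna genes, Kcna1 and Kcna6 were called outside neurons, both in oligodendrocytes. Both code for subunits of axonal channels that open at low voltage. Kcna1 (chr6:126640397-126646384) had 211 CPM (library 1) and 119 CPM (library 2) in oligodendrocytes, the myelin-forming cells, against 40.5 CPM (library 1) and 40.1 CPM (library 2) in striatal projection neurons. Pooled, it had 166 CPM (95% interval 152 to 182) in oligodendrocytes and 40.2 CPM (95% interval 34.2 to 47) in the striatal class, a ratio of 4.14-fold (95% interval 3.45 to 4.99). Kcna1 was higher in library 1 than in library 2 in oligodendrocytes, and the level in both lay above the 46 CPM that free neuronal RNA could give. That limit is the highest ratio to neurons among the 10 free RNA markers in the class (1.53 in oligodendrocytes) times the gene's level in neurons. Kcna6 (chr6:126708329-126740674) had 183 CPM (library 1) and 163 CPM (library 2) in oligodendrocytes and 35.3 CPM (library 1) and 94.2 CPM (library 2) in the endothelial class, a pooled ratio of 2.06-fold (95% interval 1.41 to 3.14). Its level of 174 CPM (95% interval 159 to 189.6) in oligodendrocytes also lay above its free RNA limit of 89.5 CPM. Gm26673 overlaps Kcna6 on the other strand.

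Kcna4 (chr2:107290639-107298502), a subunit of transient axonal channels, was called in striatal projection neurons. It had 34.8 CPM (library 1) and 40.8 CPM (library 2) there and 10.4 CPM (library 1) and 24.2 CPM (library 2) in microglia, the next class, with a pooled 39.2 CPM (95% interval 33.2 to 45.9) in the striatal class and 18.1 CPM in microglia and a ratio of 2.16-fold (95% interval 1.2 to 4.27). Direct-pathway and indirect-pathway striatal neurons had 40.2 and 39.3 CPM, while the other 11 subclasses lay between 3.11 and 16 CPM. Among the 13 neuronal subclasses Kcna5 was also highest in these, at low counts, with 11.4 CPM in indirect-pathway and 9.04 CPM in direct-pathway neurons and at most 5.14 CPM in the other 11. By class Kcna5 and Kcna2 were highest in astrocytes, with 12.7 and 93.8 CPM, and neither was called. In library 1 the endothelial class was highest for both, and in astrocytes 0 members exceeded the free RNA limit. Among subclasses Kcna6, the Kcna gene with most UMIs, ran only from 20.1 CPM in indirect-pathway neurons to 116 CPM in near-projecting neurons. Kcna1 and Kcna2 had their highest neuronal levels in parvalbumin interneurons, with 63.9 and 88.2 CPM, and neither was called by subclass.

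**Figure D3:**
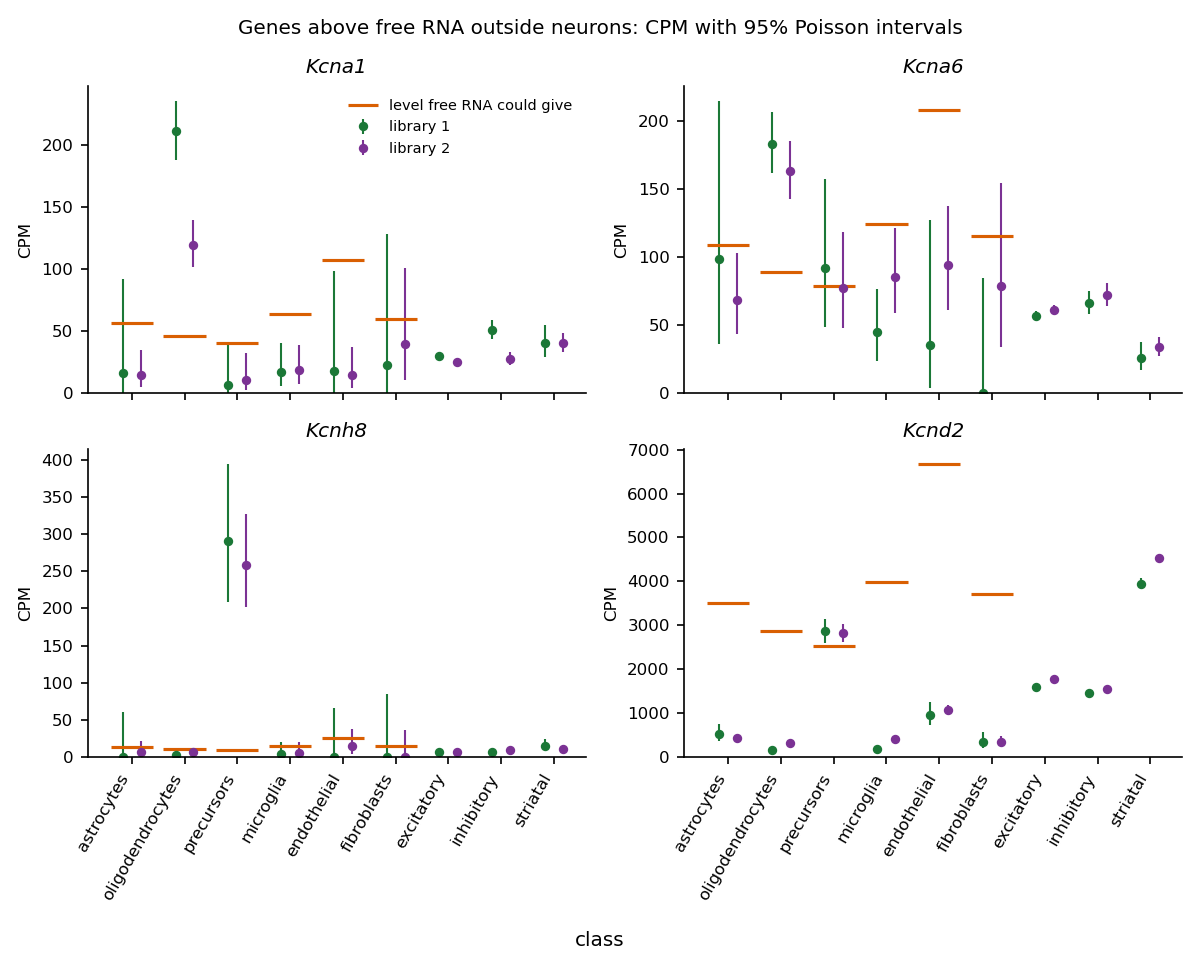
CPM of the 4 members above free RNA outside neurons, by class (library 1 green, library 2 purple, bars are exact 95% Poisson intervals). Orange lines mark the level free RNA could give in each non-neuronal class; the oligodendrocyte points of Kcna1 and Kcna6 and the precursor points of Kcnh8 and Kcnd2 lie above them in both libraries.

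Kcnb2, which codes for a delayed rectifier of the soma, was not called in any class or subclass. Kcnb2 (chr1:15287254-15723750) was highest in layer 4/5 intratelencephalic neurons, with 1153 CPM (library 1) and 1227 CPM (library 2), and next in layer 2/3, with 938 CPM (library 1) and 990.0 CPM (library 2). The pooled 1190.0 CPM (95% interval 1164 to 1217) in layer 4/5 was 1.23-fold (95% interval 1.19 to 1.27) the 965 CPM of layer 2/3, under the 1.5-fold limit. VIP interneurons had 852 CPM, far from the 197 CPM of parvalbumin and 227 CPM of LAMP5 interneurons, and layer 6 corticothalamic neurons were lowest at 164 CPM. Outside neurons, fibroblasts had 944 CPM (95% interval 792 to 1115) from 137 UMIs, which is 1.48 times the level over all neurons and below the free RNA limit of 1264 CPM.

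Kcnd2, which carries the transient dendritic current together with the Kcnip and Dpp partner proteins, was highest in striatal projection neurons and also high in oligodendrocyte precursors. Kcnd2 (chr6:21215503-21729805) had 3949 CPM (library 1) and 4519.8 CPM (library 2) in striatal projection neurons, against 2855 CPM (library 1) and 2820.3 CPM (library 2) in oligodendrocyte precursors. Pooled, it had 4365 CPM (95% interval 4299 to 4431) in striatal projection neurons and 2832 CPM (95% interval 2672 to 2999.6) in the precursors, a ratio of 1.54-fold (95% interval 1.45 to 1.64), and with library 1 alone the ratio of 1.38 was under the limit. In the precursors the level lay above the free RNA limit of 2530.1 CPM, by a small margin. Indirect-pathway and direct-pathway neurons had 4692 and 4538 CPM, a difference within counting error, with a ratio of 1.03-fold (95% interval 0.999 to 1.07). Near-projecting neurons with 2894 CPM and somatostatin interneurons with 2325 CPM followed, and VIP interneurons with 887 CPM and layer 6b neurons with 824 CPM were lowest.

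Kcnd3 and Kcnd1 were not called. Kcnd3 was highest in VIP and LAMP5 interneurons, with 262 and 252 CPM, and lowest in parvalbumin interneurons and near-projecting neurons, with 45.2 and 30.8 CPM. In near-projecting neurons Kcnd3 was thus at its lowest and Kcnd2 at its highest level among cortical subclasses. Kcnd3os overlaps Kcnd3 on the other strand. Kcnd1 lay between 3.19 and 12.3 CPM over the subclasses.

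Among the modifying subunits, 2 genes were called in 1 neuronal subclass each. Kcng1 (chr2:168260117-168281736) had 52 CPM (library 1) and 41.7 CPM (library 2) in layer 5 extratelencephalic neurons, the cells that project to brainstem and spinal cord, against 28 CPM (library 1) and 12.8 CPM (library 2) in layer 6b. The pooled 47.2 CPM (95% interval 40.3 to 54.9) in layer 5 extratelencephalic neurons and 22.6 CPM in layer 6b give a ratio of 2.09-fold (95% interval 1.41 to 3.2), and inhibitory subclasses lay between 2.19 and 4.28 CPM. Kcng2 was also highest in layer 5 extratelencephalic neurons, at 17 CPM, with 9.83 CPM in LAMP5 interneurons next, and was not called because the interval of the ratio, 0.822 to 4.18, held 1. Kcnv1 (chr15:45106284-45114920) had 156 CPM (library 1) and 160.1 CPM (library 2) in claustrum neurons and 56 CPM (library 1) and 74 CPM (library 2) in layer 2/3 neurons. The pooled 159 CPM (95% interval 134 to 186) in the claustrum was 2.42-fold (95% interval 2.0 to 2.91) the 65.5 CPM of layer 2/3, and layer 5 extratelencephalic neurons were lowest at 11 CPM.

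Kcns3 (chr12:11090202-11151056) was highest in interneurons. In inhibitory neurons it had 61.3 CPM (library 1) and 52.8 CPM (library 2), against 10.4 CPM (library 1) and 18.8 CPM (library 2) in microglia, the next class, and the pooled 56.8 CPM (95% interval 51.5 to 62.5) was 3.76-fold (95% interval 2.02 to 7.89) the 15.1 CPM of microglia, while excitatory neurons had 2.79 CPM. Among subclasses LAMP5 interneurons had 97.1 CPM (95% interval 76.9 to 121) and parvalbumin interneurons 73.7 CPM (95% interval 63.7 to 84.7), a ratio of 1.32-fold (95% interval 1.0 to 1.72) that was not called. Somatostatin interneurons had 46 CPM and VIP interneurons 14.2 CPM, and the 9 excitatory and striatal subclasses had at most 7.07 CPM. Within the somatostatin subclass one cluster of 324 nuclei had 73.5 CPM, and the other 3 had 3.64, 12.4 and 18 CPM in 73, 125 and 76 nuclei. Kcng3 (chr17:83585957-83631895) was called in striatal projection neurons by class, with 10.4 CPM (library 1) and 14.8 CPM (library 2), against 8.19 CPM (library 1) and 8.84 CPM (library 2) in excitatory neurons, a pooled 13.6 CPM (95% interval 10.2 to 17.7) in striatal projection neurons and 8.53 CPM in excitatory neurons and a ratio of 1.59-fold (95% interval 1.17 to 2.13). By subclass it was spread over direct-pathway, layer 2/3, layer 4/5 and indirect-pathway neurons, at 16.1, 12.6, 12.4 and 12.2 CPM, and at most 6.79 CPM in the other subclasses. With doublets kept the class ratio of Kcng3 was 1.28, under the limit.

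Kcnf1 (chr12:17172100-17176888) was highest in near-projecting neurons, with 55.2 CPM (library 1) and 48.4 CPM (library 2), and next in layer 6 corticothalamic neurons, with 34.9 CPM (library 1) and 35.2 CPM (library 2). The pooled ratio was 1.47-fold (95% interval 0.959 to 2.17), from 51.4 CPM (95% interval 34.7 to 73.3) in near-projecting and 35 CPM in layer 6 corticothalamic neurons, and its interval held 1. Kcns1 and Kcns2 were low in every subclass, at most 11.7 and 18.4 CPM, and neither was called.

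Kcnh8 had the largest ratio of highest to next class among the 14 members called. Kcnh8 (chr17:52602709-52979194), a channel of the ELK group, had 291 CPM (library 1) and 259 CPM (library 2) in oligodendrocyte precursors, the dividing cells from which oligodendrocytes form, against 0 UMIs in library 1, which allows up to 65.1 CPM, and 14.5 CPM in library 2 in the endothelial class. The pooled 270.1 CPM (95% interval 222 to 325) rests on 111 UMIs and was 22.5-fold (95% interval 8.53 to 83.9) the 12 CPM of the endothelial class, which rests on 4 UMIs. It was far above the free RNA limit of 9.43 CPM, and mature oligodendrocytes had 3.84 CPM. No neuronal subclass exceeded 13.7 CPM. The 98 nuclei of differentiating oligodendrocytes, between both stages, had 35.4 CPM.

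Kcnh5, of the EAG group, was highest in layer 4/5 intratelencephalic neurons. Kcnh5 (chr12:74897220-75177332) had 275 CPM (library 1) and 248 CPM (library 2) there, against 74.7 CPM (library 1) and 56 CPM (library 2) in layer 2/3. The pooled 261 CPM (95% interval 249 to 274) was 4.03-fold (95% interval 3.65 to 4.45) the 64.9 CPM of layer 2/3, and LAMP5 interneurons were lowest at 3.69 CPM. With the unnamed neuronal clusters among the groups the ratio was 1.45, under the limit. A cluster of 385 such nuclei led by Ndst4 and Abi3bp had 180.3 CPM.

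Kcnh7 (chr2:62693414-63184287), of the ERG group, had more UMIs than any other member, 133429 over all barcodes. By class it had 2715 CPM (library 1) and 2578 CPM (library 2) in excitatory neurons, against 1343 CPM (library 1) and 1259.6 CPM (library 2) in inhibitory neurons, a pooled 2644 CPM (95% interval 2627 to 2660.4) in excitatory neurons and 1299 CPM in inhibitory neurons and a ratio of 2.03-fold (95% interval 1.99 to 2.08). Its subclasses differed widely. Layer 5 extratelencephalic, layer 4/5, layer 2/3 and layer 6 corticothalamic neurons had 3125, 3056, 2875 and 2851 CPM. The claustrum, LAMP5 and parvalbumin interneurons had 2109.8, 2096 and 2087 CPM, and VIP interneurons, both striatal subclasses and somatostatin interneurons only 706, 499, 479.9 and 414 CPM. Parvalbumin and somatostatin interneurons, which arise from the same embryonic region, thus lay at 2087 and 414 CPM. The first 2 subclasses of the order did not differ beyond counting error, with a ratio of 1.02-fold (95% interval 0.999 to 1.05). Gca and Gm13569 overlap Kcnh7 on the other strand.

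Kcnh4 (chr11:100740376-100759942) was called by class in striatal projection neurons, where it had 81.9 CPM (library 1) and 68.9 CPM (library 2), against 29.8 CPM (library 1) and 31 CPM (library 2) in excitatory neurons, a pooled 72.5 CPM (95% interval 64.3 to 81.4) in striatal projection neurons and 30.4 CPM in excitatory neurons and a ratio of 2.38-fold (95% interval 2.08 to 2.72). By subclass layer 2/3 neurons shared its level, with 81.2, 78.4 and 74.8 CPM in indirect-pathway, layer 2/3 and direct-pathway neurons, and 23.4 CPM in layer 4/5, the next. Kcnh5 was called by class in excitatory neurons with 95.7 CPM (95% interval 92.5 to 98.9), 1.57-fold (95% interval 1.06 to 2.43) the 60.8 CPM of oligodendrocyte precursors, and the libraries gave 104 CPM (library 1) and 87.9 CPM (library 2) in excitatory neurons. That ratio was under the limit at a finer clustering (1.46 at resolution 2) and in each library alone (1.42 in library 1 and 1.32 in library 2). Kcnh3 (chr15:99224861-99242817) was called in the endothelial class with 229 CPM (library 1) and 145 CPM (library 2), against 92.9 CPM (library 1) and 92.9 CPM (library 2) in excitatory neurons, a pooled 159 CPM (95% interval 119 to 208) in the endothelial class and 92.9 CPM in excitatory neurons and a ratio of 1.71-fold (95% interval 1.28 to 2.25). That level lies far below the free RNA limit of 292 CPM in this class, and Mcrs1 overlaps Kcnh3 on the other strand. Kcnh1, Kcnh2 and Kcnh6 were not called: Kcnh1 ran from 41.4 to 237 CPM over the subclasses with layer 4/5 highest, Kcnh2 from 5.55 to 25.8 CPM with parvalbumin interneurons highest, and Kcnh6 from 0.753 to 5.35 CPM.

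Kcnq5 (chr1:21398403-21961942) was the Kcnq gene with most UMIs, and its subunits also form M-current channels. By class it had 2979 CPM (library 1) and 3479 CPM (library 2) in striatal projection neurons, against 2000.1 CPM (library 1) and 2004 CPM (library 2) in excitatory neurons, a pooled 3343 CPM (95% interval 3286 to 3401) in striatal projection neurons and 2002 CPM in excitatory neurons and a ratio of 1.67-fold (95% interval 1.64 to 1.7), and the ratio was 1.49 in library 1 alone. By subclass direct-pathway and indirect-pathway striatal neurons had 3531 and 3383 CPM. Layer 2/3, layer 5 extratelencephalic, VIP, layer 4/5, LAMP5 and claustrum neurons followed, between 1738 and 2759.7 CPM. Parvalbumin, layer 6 corticothalamic and near-projecting neurons had 653, 607 and 574 CPM, and somatostatin and layer 6b neurons 216 and 193 CPM. The gene thus split interneurons into VIP and LAMP5 cells with high levels and parvalbumin and somatostatin cells with low ones. Within direct-pathway neurons 1 cluster of 164 nuclei had 1267 CPM, while the other 3 had 3623 to 4426 CPM. The cluster of 164 nuclei had a median of 1277 UMIs, against 2709 to 3166 in the other 3. Its leading genes included Stac and Gpr149, and whether it is a separate cell type was not tested. Within VIP interneurons one cluster of 85 nuclei had 3996 CPM and the other, of 310 nuclei, 1539 CPM. Gm26580 overlaps Kcnq5 on the other strand.

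Kcnq3, whose subunit takes part in the M-current channel, was spread over all subclasses, from 309 CPM in VIP interneurons to 1121 CPM in layer 4/5 neurons. By class Kcnq3 reached 672 CPM in oligodendrocytes, close to its neuronal range of 599 to 826 CPM, and stayed below its free RNA limit of 1147 CPM. Kcnq1 ran from 82.9 to 151 CPM. Kcnq1ot1 and 2 other genes overlap Kcnq1 on the other strand, and the remaining such pairs are Kcnq3 with Gm27153, Kcnh1 with Hhat, Kcnh2 with Gm15589, Kcng2 with Gm26676 and Kcna3 with Gm27008.

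**Figure D4:**
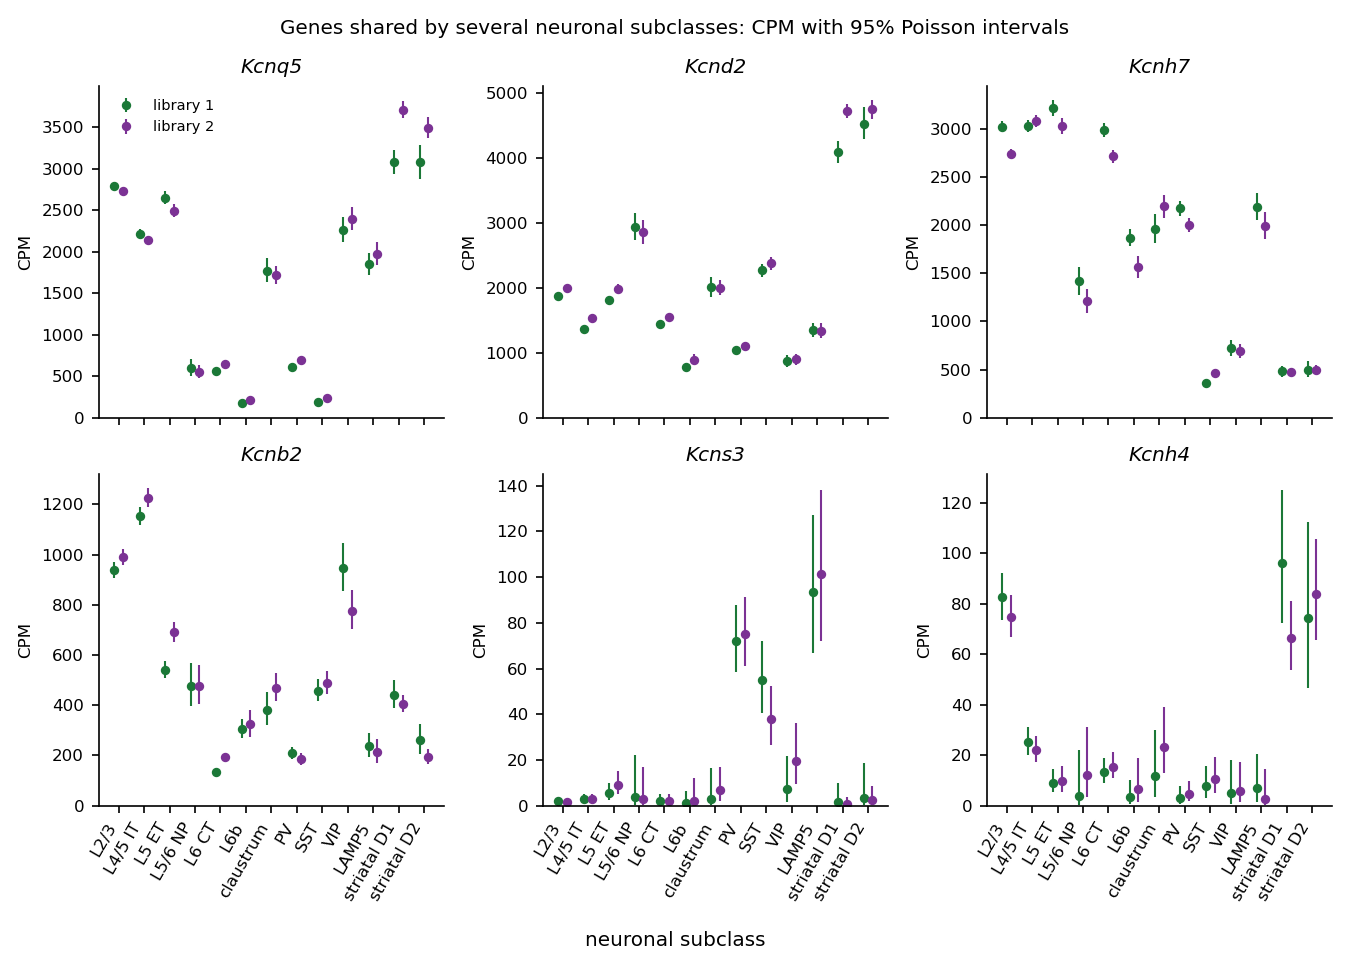
CPM of 6 members that several neuronal subclasses share, by subclass (library 1 green, library 2 purple, bars are exact 95% Poisson intervals). Kcnq5 and Kcnd2 are highest in both striatal subclasses, Kcnh7 is low in somatostatin, VIP and striatal neurons, Kcns3 is high in LAMP5, parvalbumin and somatostatin interneurons, and Kcnh4 in striatal and layer 2/3 neurons.

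Outside neurons, 4 of 40 members exceeded the level that free RNA could give: Kcna1 and Kcna6 in oligodendrocytes, and Kcnh8 and Kcnd2 in oligodendrocyte precursors. The limit is strict, because it takes the highest ratio among the 10 markers, that of Nrgn in every class but the precursors, where it is that of Gad1. With their median ratio in its place 26 members counted in at least 1 class, 16 of them in oligodendrocytes, 11 in the precursors, 8 in microglia, 5 in astrocytes, 5 in endothelial cells and 2 in fibroblasts. Between these limits the presence of the other members outside neurons was not tested. Neither limit was applied to all genes, so no share over all genes stands beside these counts.

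The libraries, which hold the 2 groups in an order that no label gives, gave close levels for most members within neuronal classes. In excitatory neurons 2 of 34 members differed by at least 1.5-fold with an interval that excluded 1, beside 7.38% of all genes tested. They were Kcnh2, with 5.0 CPM (library 1) and 9.89 CPM (library 2), and Kcns2, with 4.32 CPM (library 1) and 8.53 CPM (library 2). In inhibitory neurons 3 of 28 did, beside 8.76% of all genes: Kcna1 with 50.9 (library 1) and 27.9 CPM (library 2), Kcnv1 with 10.4 (library 1) and 18.8 CPM (library 2), and Kcnh3 with 15.8 (library 1) and 29.9 CPM (library 2). In striatal projection neurons 2 of 24 did, beside 11.2% of all genes: Kcnd3 with 135 (library 1) and 79.5 CPM (library 2), and Kcnh5 with 73.5 (library 1) and 43.6 CPM (library 2). The median ratio of library 1 to library 2 over the members was 0.949, 0.960 and 0.985 in these classes, and the shares of members past the limit are near those of all genes. No member with at least 50 UMIs in the class passed 2-fold. With 1 library a group, treatment and library cannot be told apart.

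**Figure D5:**
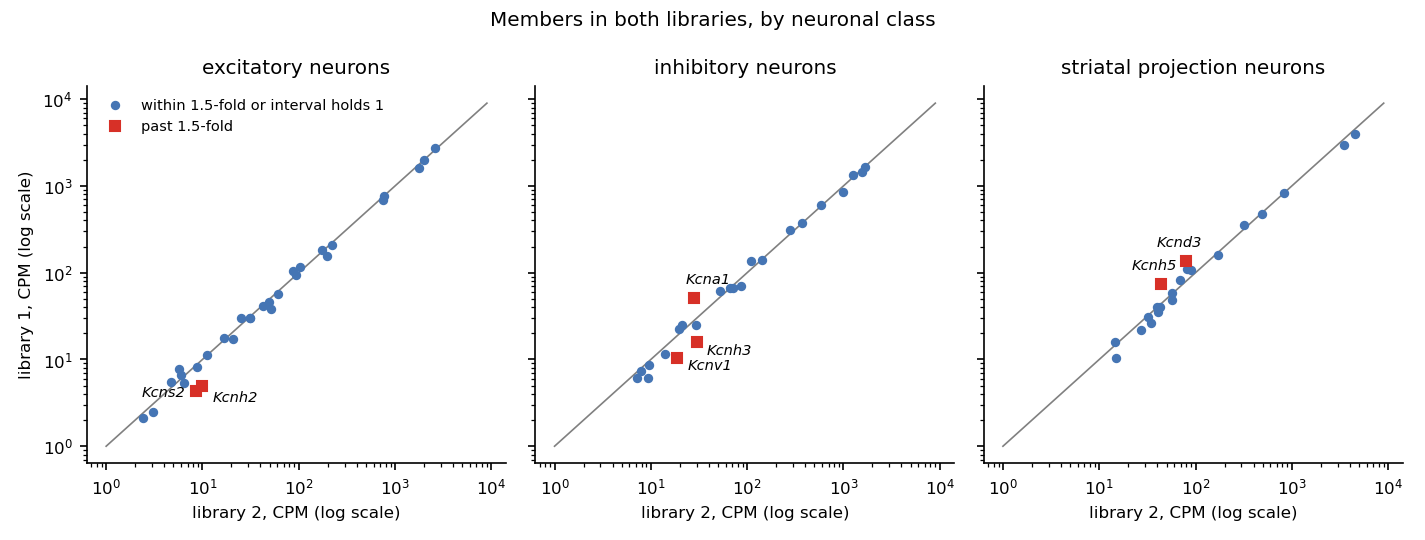
CPM of the tested members described here in library 1 (vertical, log scale) against library 2 (horizontal, log scale) in 3 neuronal classes, with the line of equal levels. Red squares name the members past 1.5-fold: 2 of 34 in excitatory, 3 of 28 in inhibitory and 2 of 24 in striatal projection neurons.

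Of the channels' partner genes, 27 symbols of a fixed list were in the matrix, 22 were tested and 3 were called in a neuronal subclass, against the background of 7.27% given above. Kcnab3, a cytoplasmic beta subunit of Kcna channels, had 90.7 CPM (library 1) and 79.7 CPM (library 2) in parvalbumin interneurons, against 34 CPM (library 1) and 20.9 CPM (library 2) in somatostatin interneurons, a pooled ratio of 3.12-fold (95% interval 2.3 to 4.32). Lgi2, of a family of secreted proteins that bind partners of Kcna channels, had 119.7 CPM (library 1) and 80.5 CPM (library 2) in parvalbumin interneurons and 58.4 CPM (library 1) and 46.7 CPM (library 2) in LAMP5 interneurons, a ratio of 1.9-fold (95% interval 1.37 to 2.68). So 2 of these 3 peaked in the same subclass as Kcnc1 and Kcnc2, while no Kcna gene was called by subclass. The share of all called genes that peaked in this subclass was not computed. Kcnip3, a calcium-binding partner of Kcnd channels, had 435 CPM (library 1) and 419 CPM (library 2) in layer 6b neurons and 216 CPM (library 1) and 244 CPM (library 2) in layer 6 corticothalamic neurons, a ratio of 1.86-fold (95% interval 1.68 to 2.07). The median ratio of the highest to the next subclass was 1.13 over the partner genes, as over all genes.

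By class 12 of the 22 partner genes were called, against the 17.8% of all genes. Kcnip2, a Kcnd partner, had 235 CPM in striatal projection neurons, 2.68-fold (95% interval 2.42 to 2.97) its level in inhibitory neurons, and Kcnab1, a Kcna partner, had 1262 CPM in the same striatal class, 2.12-fold (95% interval 2.04 to 2.21) the next. Striatal projection neurons were also the class where Kcnd2 and Kcna4 were highest. By subclass, though, Kcnab1 was highest in layer 6b neurons in both libraries, with 1635 CPM, above 1460 CPM in indirect-pathway neurons. Layer 6b was the lowest subclass for Kcnd2. Cntn2, an adhesion protein of the axon segments where Kcna channels cluster, had 323 CPM in oligodendrocytes, 4.13-fold (95% interval 2.8 to 6.35) the next class, and Lgi3 had 440.0 CPM there, 2.99-fold (95% interval 2.25 to 4.06) the next. Kcnip1 was highest in inhibitory neurons (317 CPM), Kcnip4 and Dpp10 in excitatory neurons (11708 and 1273 CPM), and Kcnip3 in oligodendrocyte precursors (394 CPM). The other 4 were Cntnap2, Cntnap1, Kcnrg and Lgi4.

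Set beside the members, the other potassium channel genes (inward rectifier, tandem-pore and calcium-activated or sodium-activated families) numbered 37. Of these 23 were tested by subclass and 3 were called, beside the 7.27% of all genes. Kcnk2, a mechanically gated leak channel, had 549.6 CPM (library 1) and 434 CPM (library 2) in indirect-pathway neurons and 290.1 CPM (library 1) and 313 CPM (library 2) in direct-pathway neurons, a ratio of 1.51-fold (95% interval 1.35 to 1.7). Kcnk3, an acid-sensitive leak channel, had 48.3 CPM (library 1) and 34.6 CPM (library 2) in parvalbumin interneurons and 19.8 CPM (library 1) and 23.6 CPM (library 2) in VIP interneurons, a ratio of 1.89-fold (95% interval 1.17 to 3.22). Kcnk13 had 51.4 CPM (library 1) and 72.7 CPM (library 2) in LAMP5 interneurons and 24.5 CPM (library 1) and 36.6 CPM (library 2) in direct-pathway neurons, a ratio of 1.86-fold (95% interval 1.26 to 2.72). None of the 3 stayed called with the unnamed neuronal clusters among the groups. By class 10 of 26 were called, beside the 17.8% of all genes. They included Kcnj13 in fibroblasts at 82.7 CPM, Kcnk6 in microglia at 78.6 CPM, Kcnk1 in astrocytes at 297 CPM and Kcnk10 in oligodendrocyte precursors at 122 CPM.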

How the data were processed

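UMI counts of single nuclei were measured in 1 deposited matrix of 2 libraries. The authors' count values are raw whole numbers per gene and barcode, per the file headers, which name software version 3.1.0. Cell Ranger 1.3.0, Seurat 3.1.4 and the build mm10 are listed in the submitters' processing notes. Whether counting used strand is not given in the sources used here. Nuclei with fewer than 500 genes and doublets called by Scrublet in each library (889 and 660) were removed. Counts were scaled to 10000 per nucleus and log-transformed, and Leiden clusters (resolution 1, 20 neighbours, 50 principal components of 3000 variable genes) were made in Scanpy 1.11.5 without potassium channel genes, their partners, haemoglobin genes and Ttr. Clusters were named from fixed marker lists. The details of the naming rule were set after the data were seen, and the members and lists were chosen with earlier results of these data known. UMIs were summed per group. With 1 pooled sample there is no replicate and no p-value, and Poisson, conditional binomial ratio and Clopper-Pearson intervals (SciPy 1.17.1) cover counting error only. A gene needed at least 50 UMIs and a group at least 100 nuclei. The call rule was run on simulated Poisson counts in which some genes were raised in 1 subclass. Those counts held no spread beyond counting error and no difference between libraries, so the run bears on counting error only. Depth was 31273163 UMIs in library 1 and 35292937 UMIs in library 2, over all barcodes. Full values are given for each called member and for the member with most UMIs of each subfamily, others by range, and up to 10 called genes of each other list. Alternatives covered the gene minimum, doublets, resolution, CPM total, single libraries, UMI minimum, fold, free RNA ratio and per-nucleus means. Some members are counted in the totals but not reported here by name.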

Additional observations from a re-analysis of the deposited data

How the results depend on the processing

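Of 240 alternative values for single members 221 kept the call under the rule of their own setting, 19 lost it and 0 changed direction. Of the 19, 6 lost it at a fold of at least 2, where the ratios themselves did not change. Changes of the fold or UMI minimum alter no level, and a call already needs the same highest group in each library. So these settings and the single libraries could not change a direction, and the lower fold and UMI minimum could not lose a call. Of 78 alternatives for counts and sums 58 stayed within their limits. The members called by class (14) were 8 with library 1 alone and 9 at a fold of at least 2, and those by neuronal subclass (6) were 10 at the lower fold limit tried. Partner genes called by subclass (3) were 1 at 2-fold and 7 at the lower limit. Other potassium channel genes (3) were 1 with library 2 alone, 0 at 2-fold, 8 at the lower limit and 0 with the unnamed neuronal clusters as further groups. Of the 7 members past 1.5-fold between libraries, 0 were past 2-fold. The summed ratio of neurons to non-neuronal nuclei (3.36) was 3.57 with at least 1000 genes per nucleus, 2.83 with doublets kept, 3.8 with the 50 genes of most UMIs left out of totals, 3.86 and 3.08 in library 1 and library 2 alone, 2.83 without Kcnh7 and 3.64 without the endothelial class. The 4 members above free RNA were 2 with at least 1000 genes per nucleus, 7 with doublets kept and 26 with the median ratio. With at least 1000 genes fewer than 100 nuclei remained of oligodendrocyte precursors and 4 other classes, so Kcnh8 had no value there. With doublets kept layer 5 extratelencephalic neurons had no cluster, so neither did Kcng1 have its call. The groups with unnamed clusters and those without the endothelial class, in which Kcnh3 had no call and Kcnc4 gained one, were chosen after seeing the data. The other causes were not tested. No paired analysis was possible because the matrix pools both groups without a map from barcodes to groups. Depth limits members under 50 UMIs.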

Other observations

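Neuronal clusters that carried no subclass name held some of the highest levels of a few members. Kcnd3, a transient dendritic channel, had 322 CPM (95% interval 292 to 354) in 385 unnamed excitatory nuclei and 291 CPM (95% interval 273 to 310.5) in 672 others, both led by Ndst4 and Abi3bp, beside 262 CPM in VIP interneurons, its highest named subclass. Kcnf1, a modifier of Kcnb channels, had 64 CPM (95% interval 47.5 to 84.3) in the 228 inhibitory nuclei led by Sst and Cort, beside 51.4 CPM in near-projecting neurons. In these 228 nuclei Kcnc2 was at 2298 CPM while Kcnc1 was at 128 CPM, so Kcnc2 was near its parvalbumin level and Kcnc1 was not. The 57 cholinergic nuclei had 2371 CPM of Kcnd2 and 524 CPM of Kcnb2. These clusters were singled out after their values were seen.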
